A study of Mus musculus with 47 samples.

Results

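Clones of a class titled SC (4 libraries) were compared with clones of a class titled SI (4 libraries), all taken 1 day after doxycycline was withdrawn from reprogramming mouse fibroblasts. The libraries were chosen by their titles and schedule, and they are 8 of the 47 libraries of the series. SC clones SC1 to SC4 and SI clones SI1 to SI4 had each spent 21 days with doxycycline and then 1 day without it (d22). Both classes are labelled secondary reprogramming cells, made by treating secondary MEFs (embryonic fibroblasts that are reprogrammed by the drug alone) with doxycycline. Neither the class names nor the strain, the transgene and its promoter are spelled out in the labels. The same clones on the last day with the drug (d21) and after 2 days without it (d23) were used for orientation. So were the secondary iPS cells of the 4 SC clones (induced pluripotent stem cells, 21 days with and 6 days without the drug) and 3 libraries of feeder mouse embryonic fibroblasts that had no drug. Each value below is an RPKM, a read count divided by gene length and library size, or a mean of log2(RPKM + 1).

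In doxycycline-driven reprogramming, the drug keeps transcription factor transgenes on until the cell's own pluripotency genes take over. Withdrawal turns the transgenes off, and the cells then depend on the endogenous network. That network is built around Oct4, Sox2 and Nanog, is tuned by LIF, BMP, Wnt, FGF and Nodal signals, and goes with a short G1 phase, high DNA methyltransferase levels and loss of fibroblast genes.

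The 8 libraries held RPKM sums of 219912.1 to 239646.0, with 11404 to 11931 of 22632 genes at 1 RPKM or more. Steps between the low values of short genes put their depth at 32.2 to 122.9 megareads, correct up to a whole multiple. Every d22 library carried Pou5f1 (Oct4), at 318, 249.6, 371 and 444 RPKM in SC1 to SC4, against 182, 188, 48.6 and 232 RPKM in SI1 to SI4, with 0.24 RPKM in feeders. The label of reprogramming cells is met in all 8 by that gene, but 2 clones stood apart. Over the 11880 genes tested, SC2 correlated at 0.978 to 0.985 with SI1, SI2 and SI4 and at 0.871 to 0.960 with the other SC clones. SI3 was nearer to feeders, with a Pearson correlation of 0.967 with the feeder mean, against 0.842 to 0.870 for the other SI clones. The correlation with the iPS mean was 0.922, 0.841, 0.955 and 0.980 for SC1 to SC4, against 0.803, 0.809, 0.760 and 0.818 for SI1 to SI4. These correlations are across genes of libraries that share a table, and they describe the clones only. Counts of genes past the threshold are therefore given without SC2, and without SC2 and SI3 together, a choice made after the values were seen, where that moved a list's count by 3 or more.

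With limma on log2(RPKM + 1), 0 of 11880 genes passed an adjusted p of 0.05 between the classes, and 4140 (34.8%) did before adjustment. Clone SC2 decided that count. Without it, 4147 of 12149 genes passed (34.1%), 2306 higher in SC (19%) and 1841 lower (15.2%). For counts of list members past the threshold without SC2, the 19% and 15.2% are the background. When the spread was shared with the 4 other times in 40 libraries, 3104 of 11880 genes passed, 1889 higher (15.9%) and 1215 lower (10.2%). No gene named below passed at d22 in the comparison of 4 with 4, so their differences are given as measured values. Every one of the 4 SC clones lay above every SI clone for 1350 genes (11.4% of those tested) and below it for 951 (8.01%). These shares are the background for counts of gene groups whose members were all tested. Other groups were counted over all members found, tested or not, unless the tested ones are named. For those groups the background is genes above 0 in any of the 8 libraries, at 9.22% above and 5.63% below. Of the tested genes, 285 (2.40%) were without overlap and at least 2-fold higher in SC, and 60 (0.505%) at least 2-fold lower. Replicates are clones, so a p-value speaks of clone-to-clone spread alone. In bulk samples, fewer cells of a type and less RNA per cell cannot be told apart.

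**Figure D1:**
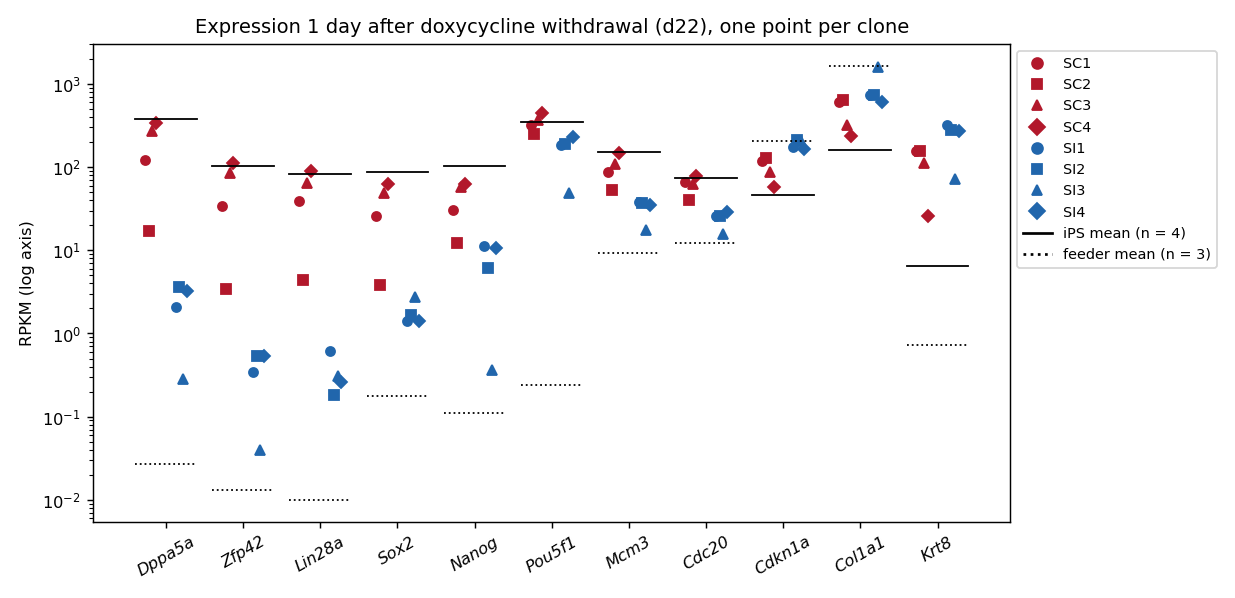
RPKM of 11 genes at d22 on a log axis, 1 point per clone (SC red, left; SI blue, right), with the iPS mean (solid line, n = 4) and the feeder mean (dotted line, n = 3). The SC points of the 4 leftmost genes spread from SC2, the square nearest to the SI clones, up to SC4 near the iPS line, while SI3, the blue triangle, lies nearest to the feeder line for Pou5f1, Nanog, Mcm3 and Col1a1.

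The 4 reprogramming factors did not behave alike. Sox2, the partner of Oct4 on DNA, stood at 25.7, 3.82, 48.8 and 63.1 RPKM in SC1 to SC4, against 1.40, 1.66, 2.71 and 1.40 RPKM in SI1 to SI4 (log2 difference 3.20 ± 0.71 SE, adjusted p = 0.1). All 4 SC clones were above the SI clones, and SC2 was 1.41-fold above the highest SI clone, SI3. Pou5f1, given above, also did not overlap between the classes (log2 difference 1.26 ± 0.46 SE, adjusted p = 0.112), and SC1, SC3 and SC4 were near the iPS mean of 351 RPKM. Klf4, a Krüppel-like factor, was at 8.50, 4.44, 9.38 and 11.2 RPKM in SC1 to SC4, against 4.35, 5.92, 8.22 and 5.34 RPKM in SI1 to SI4 (log2 difference 0.40 ± 0.26 SE, adjusted p = 0.277). Myc, a driver of growth and proliferation, was at 19.3, 12.7, 20.1 and 25.4 RPKM in SC1 to SC4, against 12.5, 15.7, 15.3 and 15.6 RPKM in SI1 to SI4 (log2 difference 0.34 ± 0.19 SE, adjusted p = 0.227). For Klf4 and Myc the classes overlapped through SC2, and without it the SC levels were past the threshold, at log2 0.64, adjusted p = 0.0383 for Klf4 and log2 0.51, adjusted p = 0.0287 for Myc. The reads do not separate the endogenous copies of these 4 genes from the doxycycline-driven ones.

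At d21, with the drug present, Sox2 averaged 139 ± 33.6 RPKM in SC and 124 ± 33.8 RPKM in SI and Pou5f1 1004 ± 326 RPKM in SC and 973 ± 312 RPKM in SI (SD, n = 4 each). Klf4 averaged 169 ± 90.8 RPKM in SC and 171 ± 64.2 RPKM in SI at d21 and Myc 49.96 ± 12.8 RPKM in SC and 62.4 ± 16.2 RPKM in SI. The classes thus had like levels of the 4 factors on the drug, while 1 day without it Sox2 averaged 35.3 ± 26.1 RPKM in SC and 1.79 ± 0.62 RPKM in SI. The Sox2 gap between classes at d22 exceeded that at d21 by log2 3.03 ± 0.82 SE, adjusted p = 0.1, and that of Pou5f1 by log2 1.21 ± 0.41 SE, adjusted p = 0.121, neither past the threshold.

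Of 18 transcription factors of naive pluripotency (the ground state of mouse embryonic stem cells), 12 were above all SI clones in every SC clone and 0 were below. Over genes detected in any of the 8 libraries, these shares were 9.22% and 5.63%. Nanog, which holds cells in self-renewal, was at 30.2, 12.1, 56.9 and 62.4 RPKM in SC1 to SC4, against 11.3, 6.13, 0.36 and 10.8 RPKM in SI1 to SI4 (log2 difference 2.51 ± 0.75 SE, adjusted p = 0.102). SC2 lay just above the highest SI clone, and SI3 was almost without Nanog. Esrrb, a nuclear receptor that can stand in for Nanog, was at 10.8, 3.28, 18.1 and 24.2 RPKM in SC1 to SC4, against 1.72, 1.02, 0.13 and 1.72 RPKM in SI1 to SI4 (log2 difference 2.62 ± 0.53 SE, adjusted p = 0.1). The zinc finger gene Zfp42 (Rex1), a marker of the naive state, was at 33.99, 3.45, 85.5 and 113 RPKM in SC1 to SC4, against 0.34, 0.54, 0.040 and 0.53 RPKM in SI1 to SI4, with 104 RPKM in iPS cells. Its 4 SI clones were all below 1 RPKM, and SC4 was at the iPS level. Sall1, a zinc finger partner of Nanog, was the factor with the least spread among SC clones, at 12.5, 11.9, 16.7 and 16.9 RPKM in SC1 to SC4, against 4.76, 5.41, 2.36 and 6.80 RPKM in SI1 to SI4 (log2 difference 1.46 ± 0.25 SE, adjusted p = 0.1). Here SC2 stood with the other SC clones rather than with SI. Klf5, another Krüppel-like factor, overlapped, at 18.01, 13.5, 21.2 and 19.5 RPKM in SC1 to SC4, against 14.2, 11.9, 5.41 and 14.8 RPKM in SI1 to SI4 (log2 difference 0.66 ± 0.29 SE, adjusted p = 0.139). Without SC2, 11 of the 15 factors tested passed, all higher in SC. With all times pooled 11 passed too.

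The genes that come on late in reprogramming had the widest gaps among the gene lists. Of 19 such genes, 16 were above all SI clones in every SC clone and 0 below, where 9.22% and 5.63% of detected genes were. The list was chosen with earlier results of these data known, so the count is no separate support. The mean log2(RPKM + 1) of the 19 was 4.32, 2.72, 5.17 and 5.43 in SC1 to SC4, against 1.86, 1.89, 0.91 and 1.98 in SI1 to SI4, with 5.42 in iPS cells and 0.28 in feeders. SC4 matched the iPS level, SC2 lay 0.74 above the highest SI clone, and SI3 was lowest. Dppa5a, which encodes a KH-domain protein of early embryonic cells, had the widest difference of all named genes, at 122, 17.3, 274 and 337 RPKM in SC1 to SC4, against 2.10, 3.60, 0.28 and 3.23 RPKM in SI1 to SI4 (log2 difference 5.34 ± 0.87 SE, adjusted p = 0.1). Lin28a, which blocks maturation of let-7 microRNAs, was at 39.5, 4.37, 63.8 and 90.1 RPKM in SC1 to SC4, against 0.61, 0.18, 0.31 and 0.26 RPKM in SI1 to SI4, and without SC2 it passed at log2 5.54, adjusted p = 0.000172. Near-identical pseudogene copies make the Dppa5a level uncertain. Alpl, the alkaline phosphatase long used to stain reprogramming colonies, did not separate the classes, at 5.21, 8.16, 9.44 and 11.1 RPKM in SC1 to SC4, against 7.84, 6.58, 0.79 and 10.7 RPKM in SI1 to SI4 (log2 difference 0.59 ± 0.53 SE, adjusted p = 0.417). Without SC2, 14 of the 15 late genes tested passed, all higher in SC. Only SI3 was low for Alpl, and the sign of its difference turns without that clone (log2 -0.004).

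By the naming rule the other genes highest in SC were Dnmt3l, Tex19.1, Trh, Pla2g1b and Trap1a. Trh, the precursor of thyrotropin-releasing hormone, was at 99.1, 19.04, 125 and 164 RPKM in SC1 to SC4, against 7.12, 9.84, 0.31 and 6.77 RPKM in SI1 to SI4 (log2 difference 3.88 ± 0.81 SE, adjusted p = 0.1). Pla2g1b, a secreted phospholipase, was at 12.4, 1.53, 29.7 and 38.99 RPKM in SC1 to SC4, against 0, 0.040, 0 and 0.080 RPKM in SI1 to SI4. It was listed at 0 in SI1 and SI3. Trap1a, an X-linked gene first found as a tumour rejection antigen, was at 8.96, 1.19, 33.8 and 43.6 RPKM in SC1 to SC4, against 0.030, 0.090, 0.030 and 0.11 RPKM in SI1 to SI4 (log2 difference 3.67 ± 0.82 SE, adjusted p = 0.1). Tex19.1, a gene of germ cells and pluripotent cells with a close paralog, was at 9.29, 1.40, 54.6 and 65.96 RPKM in SC1 to SC4, against 0.080, 0.17, 0.020 and 0.48 RPKM in SI1 to SI4 (log2 difference 3.89 ± 0.94 SE, adjusted p = 0.1). In each of the 4 genes SC3 and SC4 were highest, SC1 followed and SC2 was last among SC clones. SC2 was 1.93-fold above the highest SI clone for Trh, 2.92-fold for Tex19.1 and 10.8-fold for Trap1a. Tex19.1 belongs to a list of 18 germline genes, of which 12 were above all SI clones in every SC clone. Of detected genes, 9.22% were. Only 2 of the 18 were high enough to be tested, and 1 of these was above. The sum of that list was 5.47 to 118 RPKM in SC, 1.63 to 4.00 RPKM in SI and 1.43 RPKM in feeders.

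**Figure D2:**
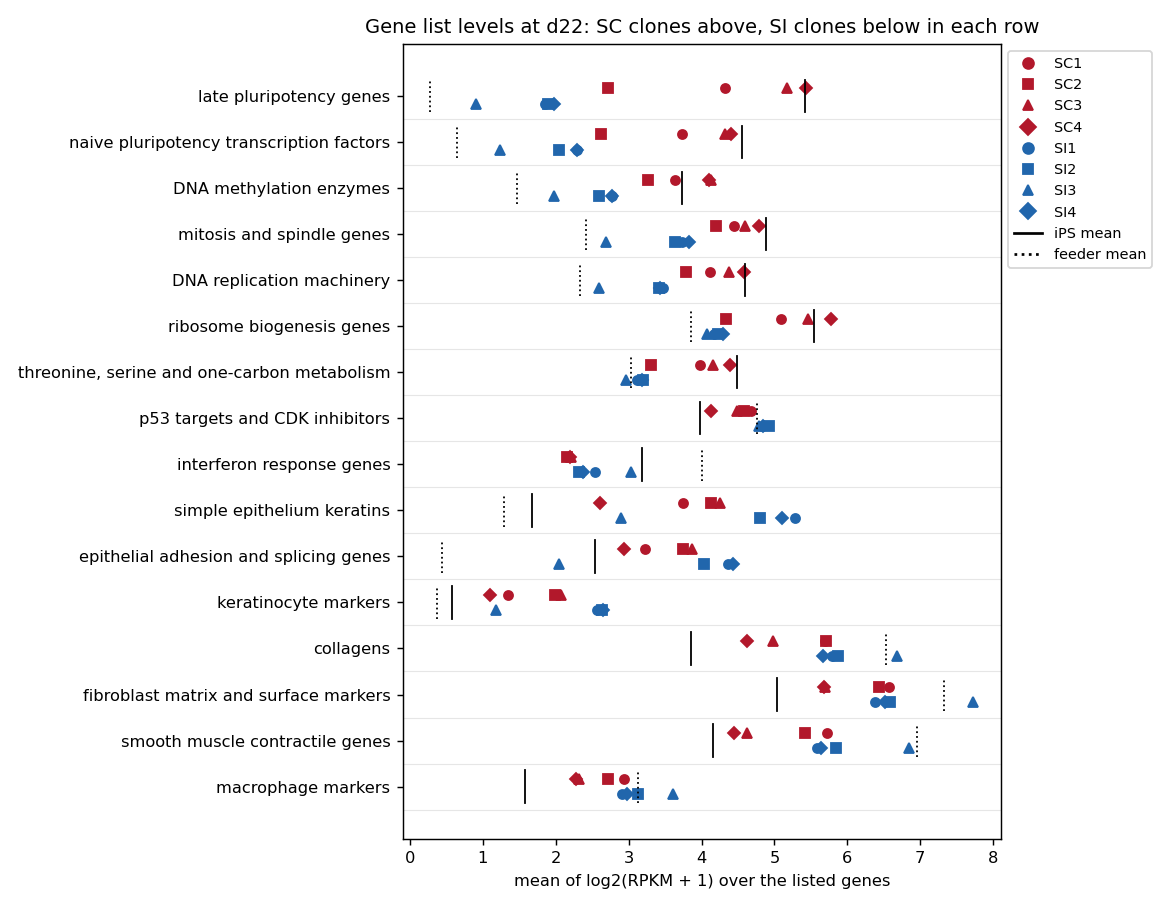
Mean of log2(RPKM + 1) over the members of 16 gene groups in each clone at d22, SC clones (red) above SI clones (blue) in each group, with iPS (solid) and feeder (dotted) means. SC4 matches the iPS mean for late pluripotency genes, at 5.43 and 5.42, and SI3 lies at 7.73 beyond the feeder mean of 7.33 for the fibroblast markers.

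Signalling genes differed by pathway. Among 14 Nodal pathway genes, 5 were higher in every SC clone than in any SI clone and 1 was lower. They were led by Tdgf1 (Cripto), the Nodal co-receptor, at 32.3, 9.22, 75.9 and 98.9 RPKM in SC1 to SC4, against 2.53, 5.00, 1.04 and 7.20 RPKM in SI1 to SI4 (log2 difference 3.21 ± 0.71 SE, adjusted p = 0.1). Lefty1 and Lefty2 encode secreted inhibitors that Nodal itself induces, and are near copies of each other, so reads can be shared. Lefty2 was at 57.05, 17.99, 111 and 113 RPKM in SC1 to SC4, against 14.6, 11.8, 4.74 and 10.7 RPKM in SI1 to SI4 (log2 difference 2.51 ± 0.57 SE, adjusted p = 0.1), and Lefty1 at 28.7, 6.49, 59.7 and 55.2 RPKM in SC1 to SC4, against 5.11, 5.04, 4.10 and 2.90 RPKM in SI1 to SI4 (log2 difference 2.50 ± 0.59 SE, adjusted p = 0.1). SC3 and SC4 were highest for both inhibitors. SC2 was 1.27-fold above the highest SI clone for Lefty1 and 1.23-fold for Lefty2. Without SC2, 7 of the 13 Nodal genes tested passed as higher and 2 as lower.

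Of 22 FGF pathway genes, 7 were above and 1 was below all SI clones in every SC clone. Of detected genes, 9.22% and 5.63% were. Among the 16 FGF genes tested, 4 were above and 1 below, where the shares are 11.4% and 8.01%. Fgf4, the FGF that embryonic stem cells secrete, was at 7.46, 1.97, 22.9 and 26.4 RPKM in SC1 to SC4, against 0.48, 0.41, 0.040 and 0.62 RPKM in SI1 to SI4 (log2 difference 3.05 ± 0.63 SE, adjusted p = 0.1). Its main receptor in fibroblasts, Fgfr1, ran the other way, at 33.6, 36.5, 25.5 and 20.7 RPKM in SC1 to SC4, against 40.8, 45.2, 53.7 and 42.5 RPKM in SI1 to SI4 (log2 difference -0.66 ± 0.19 SE, adjusted p = 0.102). Etv1, an ETS factor induced by FGF signalling, was at 2.02, 2.19, 2.04 and 1.75 RPKM in SC1 to SC4, against 0.96, 1.16, 0.85 and 1.10 RPKM in SI1 to SI4 (log2 difference 0.57 ± 0.11 SE, adjusted p = 0.1), and here SC2 was the highest clone of all 8. Spry2, a feedback inhibitor of the pathway, overlapped, at 35.6 ± 6.25 RPKM in SC and 28.6 ± 4.74 RPKM in SI (SD, n = 4 each). Of 16 FGF genes tested, 3 passed as higher and 1 as lower without SC2, near or under the 19% and 15.2% of all genes.

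The 9 genes of the LIF and STAT3 pathway were split, with 1 higher, 1 lower and 7 overlapping. Lifr, the LIF receptor subunit, was at 3.30, 3.77, 3.24 and 3.69 RPKM in SC1 to SC4, against 2.64, 2.30, 2.60 and 1.93 RPKM in SI1 to SI4 (log2 difference 0.42 ± 0.11 SE, adjusted p = 0.1). The 4 SC clones were close together for this gene, SC2 included. Jak2, a kinase of cytokine receptors, was at 11.2, 13.6, 6.86 and 4.21 RPKM in SC1 to SC4, against 15.7, 14.2, 17.8 and 14.2 RPKM in SI1 to SI4 (log2 difference -0.83 ± 0.29 SE, adjusted p = 0.109). Pim3, a kinase induced by STAT3, was at 20.4, 8.23, 26.4 and 30.9 RPKM in SC1 to SC4, against 8.31, 9.24, 5.90 and 8.20 RPKM in SI1 to SI4, with SC2 inside the SI range. Without SC2, Pim3 passed at log2 1.59, adjusted p = 0.00284, 1 of 3 that were higher, and 3 of the 9 passed as lower.

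Of 15 BMP pathway genes, 0 were above and 2 below all SI clones, and of 14 tested 5 passed as lower and 1 as higher without SC2. The BMP effector Smad1 was at 2.63, 3.09, 2.19 and 2.03 RPKM in SC1 to SC4, against 3.61, 3.93, 4.55 and 3.41 RPKM in SI1 to SI4 (log2 difference -0.49 ± 0.14 SE, adjusted p = 0.1). Bmp1, a protease that trims procollagens and frees BMPs, was at 68.3, 61.2, 35.02 and 27.5 RPKM in SC1 to SC4, against 69.8, 74.3, 120.2 and 69.6 RPKM in SI1 to SI4 (log2 difference -0.84 ± 0.31 SE, adjusted p = 0.114), and SI3 and the feeders, at 121 RPKM, were alike. Of 20 Wnt pathway genes, 1 was above and 2 were below. Tcf7, a Wnt-responsive DNA-binding factor, was at 6.67, 2.83, 18.4 and 20.2 RPKM in SC1 to SC4, against 2.16, 2.47, 1.63 and 2.15 RPKM in SI1 to SI4 (log2 difference 1.76 ± 0.50 SE, adjusted p = 0.1). Nkd1, a Wnt feedback inhibitor, was at 0.77, 1.16, 0.31 and 0.23 RPKM in SC1 to SC4, against 2.08, 2.29, 1.38 and 1.56 RPKM in SI1 to SI4 (log2 difference -0.83 ± 0.20 SE, adjusted p = 0.1). Tcf7 was highest in SC3 and SC4 and in SC2 1.15-fold above the highest SI clone, while Nkd1 was lowest in SC3 and SC4. Of 16 Wnt genes tested, 1 passed as higher and 2 as lower without SC2, under the 19% and 15.2% of all genes. Without SC2 and SI3, 1 passed as higher and 6 as lower, where 19.9% and 21.9% of all genes did.

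Of 10 genes of the primed epiblast, the state after implantation, 6 were above and 1 was below. Only 4 of the 10 were high enough to be tested, and of these 2 were above and 1 below. Pou3f1 (Oct6), a factor of primed and early neural cells, was at 5.94, 1.42, 15.9 and 20.6 RPKM in SC1 to SC4, against 0.70, 0.93, 0.37 and 0.94 RPKM in SI1 to SI4 (log2 difference 2.36 ± 0.60 SE, adjusted p = 0.1). Sox4, a SOX factor of many embryonic tissues, was the 1 below, at 20.1, 26.9, 17.7 and 14.5 RPKM in SC1 to SC4, against 30.1, 37.3, 35.8 and 28.9 RPKM in SI1 to SI4 (log2 difference -0.73 ± 0.19 SE, adjusted p = 0.1). Of the 4 primed genes that could be tested, 2 passed as higher and 1 as lower without SC2. The naive and primed lists were therefore high in the same clones, SC1, SC3 and SC4.

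Of 10 DNA methylation enzymes, 5 were above all SI clones in every SC clone and 0 below, with a median log2 difference of 0.59 over the 9 tested. Dnmt3b, a de novo DNA methyltransferase, was at 45.3, 11.3, 92.2 and 133 RPKM in SC1 to SC4, against 4.72, 4.13, 1.51 and 4.37 RPKM in SI1 to SI4 (log2 difference 3.54 ± 0.67 SE, adjusted p = 0.1). Dnmt3l, the cofactor that stimulates such enzymes, was at 33.5, 3.00, 79.99 and 111 RPKM in SC1 to SC4, against 0.15, 0.26, 0.58 and 0.49 RPKM in SI1 to SI4, while in feeders it was at 0.67 RPKM. Tet1, which oxidises methylated cytosine, was at 11.2, 3.29, 19.9 and 22.8 RPKM in SC1 to SC4, against 0.84, 0.65, 0.48 and 1.06 RPKM in SI1 to SI4 (log2 difference 2.86 ± 0.48 SE, adjusted p = 0.1). All 4 SI clones were close to 1 RPKM or below for Tet1, and SC2 stood 3.10-fold above the highest of them. Dnmt3a, the other de novo enzyme, overlapped, at 11.7, 15.9, 21.9 and 23.1 RPKM in SC1 to SC4, against 17.7, 13.97, 6.31 and 13.99 RPKM in SI1 to SI4 (log2 difference 0.49 ± 0.31 SE, adjusted p = 0.267). Without SC2, 4 of the 9 tested passed as higher and 1 as lower.

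All 23 Polycomb genes were tested, and 9 were above and 0 below all SI clones. The widest difference in the list was that of Epop. Mtf2, an accessory subunit that brings Polycomb repressive complex 2 to CpG islands, was at 17.6, 10.2, 28.9 and 30.6 RPKM in SC1 to SC4, against 7.32, 7.80, 4.86 and 8.99 RPKM in SI1 to SI4 (log2 difference 1.38 ± 0.33 SE, adjusted p = 0.1). Epop, an accessory subunit of the same complex in embryonic stem cells, was at 47.8, 28.5, 79.8 and 94.9 RPKM in SC1 to SC4, against 22, 23.2, 5.88 and 15.3 RPKM in SI1 to SI4 (log2 difference 1.87 ± 0.48 SE, adjusted p = 0.1). Cbx7, the chromodomain subunit of Polycomb complex 1 in embryonic stem cells, was at 6.76, 2.59, 9.33 and 13.6 RPKM in SC1 to SC4, against 1.91, 2.02, 0.67 and 2.37 RPKM in SI1 to SI4 (log2 difference 1.60 ± 0.41 SE, adjusted p = 0.1). SC2 was 1.09-fold above the highest SI clone for Cbx7, 1.14-fold for Mtf2 and 1.23-fold for Epop. Without SC2, 11 of the 23 passed as higher and 4 as lower.

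**Figure D3:**
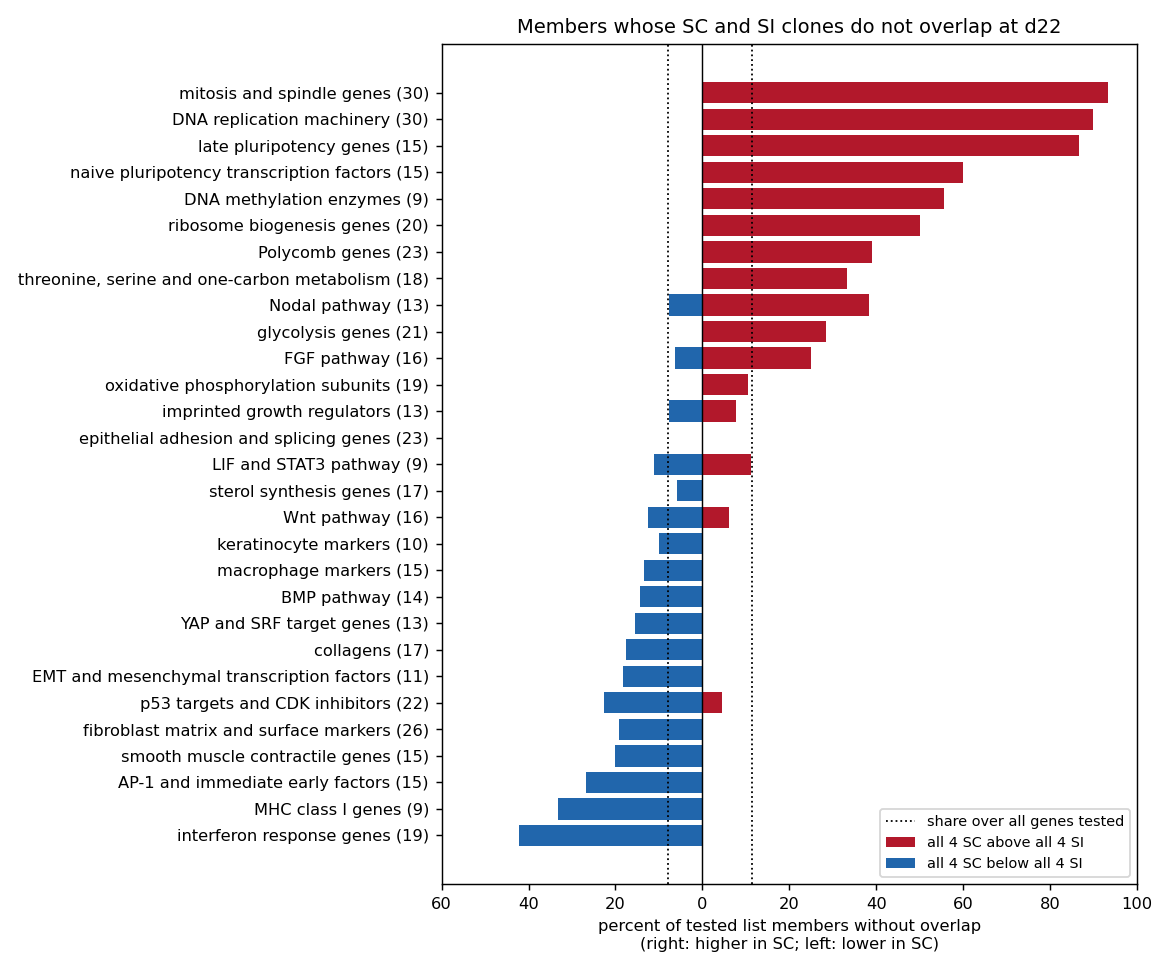
Percent of the tested members of 29 gene groups (number tested in brackets) for which all 4 SC clones lie above (right, red) or below (left, blue) all 4 SI clones at d22, with the share over all 11880 tested genes dotted. Mitosis and DNA replication genes reach 28 of 30 and 27 of 30, against a background of 11.4%.

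Mitosis genes had the highest share of members without overlap among the 40 gene lists read. Of 30 mitosis and spindle genes, all tested, 28 were above all SI clones in every SC clone, and of 30 DNA replication genes 27 were, where the background is 11.4%. None was below. The median log2 difference was 1.05 for mitosis and 0.966 for replication, against -0.056 over all genes tested. Cdc20, the activator of the anaphase-promoting complex, was at 65.5, 39.9, 62.8 and 77.7 RPKM in SC1 to SC4, against 25.97, 26.1, 15.9 and 29.1 RPKM in SI1 to SI4 (log2 difference 1.30 ± 0.24 SE, adjusted p = 0.1). Espl1 (separase), the protease that releases sister chromatids, was at 12.7, 7.42, 17.9 and 23.1 RPKM in SC1 to SC4, against 5.07, 4.00, 2.23 and 4.81 RPKM in SI1 to SI4 (log2 difference 1.63 ± 0.33 SE, adjusted p = 0.1). Bub1b, a spindle checkpoint kinase, was at 22.1, 15, 24.9 and 31.7 RPKM in SC1 to SC4, against 9.22, 9.14, 4.85 and 10.4 RPKM in SI1 to SI4 (log2 difference 1.38 ± 0.27 SE, adjusted p = 0.1), and Ccnb1, cyclin B1, at 13.6, 9.33, 14.3 and 15.6 RPKM in SC1 to SC4, against 6.24, 6.23, 2.40 and 7.45 RPKM in SI1 to SI4 (log2 difference 1.17 ± 0.29 SE, adjusted p = 0.1). In all 4 of these genes SC2 was the lowest SC clone, 1.25-fold (Ccnb1) to 1.46-fold (Espl1) above the highest SI clone, and SI3 was the lowest clone of all. SC2 was inside the SI range for 0 of the 30 mitosis genes. Mki67, the proliferation antigen Ki-67, was 1 of the 2 that overlapped, at 30.8, 44.8, 25.8 and 22.7 RPKM in SC1 to SC4, against 29.8, 18.03, 8.91 and 25.6 RPKM in SI1 to SI4 (log2 difference 0.65 ± 0.36 SE, adjusted p = 0.208), and there SC2 was the highest clone.

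Replication genes followed the same order of clones. Mcm3, a subunit of the replicative helicase, was at 86.8, 52.3, 109 and 147 RPKM in SC1 to SC4, against 37.9, 37.1, 17.4 and 35.1 RPKM in SI1 to SI4 (log2 difference 1.57 ± 0.35 SE, adjusted p = 0.1). Mcm10, which helps to start that helicase, was at 8.53, 5.09, 13.3 and 16.9 RPKM in SC1 to SC4, against 3.15, 2.61, 1.23 and 3.50 RPKM in SI1 to SI4 (log2 difference 1.66 ± 0.35 SE, adjusted p = 0.1). The helicase subunit Mcm7 averaged 18.2 ± 5.67 RPKM in SC and 7.31 ± 1.69 RPKM in SI and Pold1, the catalytic subunit of DNA polymerase delta, 13.9 ± 3.54 RPKM in SC and 5.62 ± 1.40 RPKM in SI (SD, n = 4 each). Rrm1, a subunit of ribonucleotide reductase, was an exception, at 54.8, 83.97, 52.3 and 43.5 RPKM in SC1 to SC4, against 74.98, 68.6, 26.03 and 61.5 RPKM in SI1 to SI4 (log2 difference 0.08 ± 0.34 SE, adjusted p = 0.865). Its sign turned without SC2 (log2 -0.101). Without SC2, 25 mitosis genes and 27 replication genes passed, all higher in SC, and with all times pooled 24 and 25 did.

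The promoters of 4 of these genes are shown because nearly all mitosis genes were higher in SC, and promoters of such genes are known to share the CCAAT box, bound by NF-Y, and the CHR element, read by the DREAM and MuvB complexes. Each is the 250 bases before the start site given by RefSeq on GRCm38.p6, read along the gene's strand, with CCAAT and TTTGAA in capitals on either strand (ATTGG and TTCAAA on the other). This build is not the mm9 named by the submitters. Cdc20 is from chr4:118437344-118437593, minus strand, Espl1 from chr15:102296043-102296292, plus strand, Bub1b from chr2:118597961-118598210, plus strand and Mcm10 from chr2:5012792-5013041, minus strand.
Cdc20: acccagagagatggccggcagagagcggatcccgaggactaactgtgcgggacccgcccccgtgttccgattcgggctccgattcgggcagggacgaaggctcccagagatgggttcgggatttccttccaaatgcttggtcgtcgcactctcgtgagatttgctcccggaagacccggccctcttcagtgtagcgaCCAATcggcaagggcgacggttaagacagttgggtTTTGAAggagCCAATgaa
Espl1: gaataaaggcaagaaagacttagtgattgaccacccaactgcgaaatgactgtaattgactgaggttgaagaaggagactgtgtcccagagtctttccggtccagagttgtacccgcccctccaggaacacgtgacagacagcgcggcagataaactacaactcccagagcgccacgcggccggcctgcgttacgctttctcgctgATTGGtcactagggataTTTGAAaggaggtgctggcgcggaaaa
Bub1b: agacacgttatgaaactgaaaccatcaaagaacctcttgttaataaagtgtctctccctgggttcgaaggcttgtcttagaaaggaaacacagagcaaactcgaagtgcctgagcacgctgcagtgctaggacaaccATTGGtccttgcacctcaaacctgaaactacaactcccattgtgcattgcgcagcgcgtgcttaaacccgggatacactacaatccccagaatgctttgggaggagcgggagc
Mcm10: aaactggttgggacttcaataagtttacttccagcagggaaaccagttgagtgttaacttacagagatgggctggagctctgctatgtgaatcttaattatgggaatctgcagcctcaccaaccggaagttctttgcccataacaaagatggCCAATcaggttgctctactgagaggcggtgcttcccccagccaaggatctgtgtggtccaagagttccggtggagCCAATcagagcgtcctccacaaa
CCAAT was found in 19 of 25 promoters of the 24 mitosis genes that matched (76.0%) and in 17 of 29 promoters of the 25 replication genes that matched (58.6%). It was found in 33.8% of all 32851 promoters and in 35.1% of those of genes tested here. TTTGAA was found in 9 of 25 mitosis promoters (36.0%) and 4 of 29 replication promoters (13.8%), against 15.99% of all and 10.2% of those of genes tested. Cdc20 and Espl1 carry both motifs, close to the start site, while Bub1b and Mcm10 carry CCAAT without TTTGAA in this window. CCAAT and TTTGAA can share at most 1 letter, and a match is a description of the letters and not a bound site.

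Some inhibitors of the cell cycle ran the other way. Of 22 p53 targets and CDK inhibitors, all tested, 5 were below all SI clones in every SC clone and 1 above. The backgrounds are 8.01% and 11.4%, and the other 16 overlapped. At d21, 5 of the 22 were below and 0 above. Cdkn1a (p21), the CDK inhibitor that p53 induces, was at 118, 128, 86.8 and 57.3 RPKM in SC1 to SC4, against 172, 211, 205 and 164 RPKM in SI1 to SI4 (log2 difference -0.99 ± 0.25 SE, adjusted p = 0.1). Cdkn2a, which encodes p16 and p19Arf from overlapping transcripts, was at 24.7, 20.6, 21.6 and 18.8 RPKM in SC1 to SC4, against 34.02, 44.8, 38.4 and 37.6 RPKM in SI1 to SI4 (log2 difference -0.83 ± 0.13 SE, adjusted p = 0.1). Its neighbour Cdkn2b (p15) was at 16.9, 15.7, 13.96 and 11.9 RPKM in SC1 to SC4, against 24.8, 32.5, 31.9 and 23.2 RPKM in SI1 to SI4 (log2 difference -0.89 ± 0.16 SE, adjusted p = 0.1). The 4 SC clones were tight for Cdkn2a and Cdkn2b, and SC2 was with them. In feeders these 3 genes were at 207, 39.9 and 40.9 RPKM, so the SI clones were near the fibroblast level for Cdkn1a and Cdkn2a. Without SC2, 7 of the 22 passed as lower and 1 as higher. Without SC2 and SI3, 8 passed as lower and 4 as higher, where 21.9% and 19.9% of all genes did. The 4 were near their share.

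Ribosome biogenesis genes set SC2 apart from the other SC clones. All 20 were higher on average in SC with an unadjusted p under 0.05 (18.9% of all genes tested were), yet 10 overlapped between the classes, and SC2 lay inside the SI range for 9. Their mean log2(RPKM + 1) was 5.09, 4.34, 5.46 and 5.77 in SC1 to SC4, against 4.17, 4.23, 4.08 and 4.30 in SI1 to SI4. SC1, SC3 and SC4 were 1.24 above the SI mean and SC2 was 0.113 of that way. Dkc1 (dyskerin), the pseudouridine synthase of small nucleolar RNPs, was at 27.9, 13.9, 36.7 and 49 RPKM in SC1 to SC4, against 9.09, 11.1, 8.70 and 12.2 RPKM in SI1 to SI4 (log2 difference 1.43 ± 0.33 SE, adjusted p = 0.1). Nop58, a core protein of such particles and the most abundant of those that overlapped, was at 107, 66.8, 115 and 142 RPKM in SC1 to SC4, against 56.6, 65.7, 43.7 and 69.01 RPKM in SI1 to SI4 (log2 difference 0.83 ± 0.24 SE, adjusted p = 0.102), and SC2 was below SI4. Polr1a, the largest subunit of RNA polymerase I, averaged 21.3 ± 6.08 RPKM in SC and 11.3 ± 1.09 RPKM in SI, and Utp20, a factor of the small subunit processome, 24.5 ± 4.20 RPKM in SC and 14.6 ± 1.44 RPKM in SI (SD, n = 4 each). Without SC2, 20 of 20 passed as higher, and so did 20 of 20 with all times pooled.

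Metabolic genes were split by pathway. Of 21 glycolysis genes, all tested, 6 were above and 0 below. Pfkm, a subunit of phosphofructokinase, was at 12.7, 10.7, 15.6 and 18.5 RPKM in SC1 to SC4, against 7.70, 8.40, 9.55 and 7.19 RPKM in SI1 to SI4 (log2 difference 0.72 ± 0.17 SE, adjusted p = 0.1), and Pfkl, the liver-type subunit, at 42.4, 31.6, 54.3 and 58.2 RPKM in SC1 to SC4, against 26.5, 26.96, 31.8 and 26.03 RPKM in SI1 to SI4 (log2 difference 0.69 ± 0.19 SE, adjusted p = 0.1). Pkm, pyruvate kinase, the most abundant that overlapped, averaged 471 ± 116 RPKM in SC and 335 ± 17.99 RPKM in SI (log2 difference 0.46 ± 0.20 SE, adjusted p = 0.143). SC2 was at the SI level for Pfkl and Pkm, and without it 12 of 21 glycolysis genes passed as higher and 1 as lower. Of 19 genes of threonine, serine and one-carbon metabolism, 6 were above. Tdh, the threonine dehydrogenase on which mouse embryonic stem cells depend, was at 18.7, 1.95, 27.2 and 37.3 RPKM in SC1 to SC4, against 0.71, 0.39, 0.020 and 0.64 RPKM in SI1 to SI4 (log2 difference 3.49 ± 0.70 SE, adjusted p = 0.1). SC2 was far below the other SC clones for Tdh, and 2.75-fold above the highest SI clone. Gcat, the next enzyme in threonine breakdown, was at 4.54, 2.81, 4.97 and 5.38 RPKM in SC1 to SC4, against 2.19, 2.75, 1.19 and 1.92 RPKM in SI1 to SI4 (log2 difference 0.85 ± 0.21 SE, adjusted p = 0.1). Of the 18 tested, 12 passed as higher without SC2.

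Of 20 subunits of oxidative phosphorylation, 2 were above and 0 below, a share at the background. Atp5c1, a subunit of ATP synthase, was at 55.99, 46.9, 61.6 and 67.4 RPKM in SC1 to SC4, against 41.9, 42.6, 40.02 and 43.9 RPKM in SI1 to SI4 (log2 difference 0.44 ± 0.13 SE, adjusted p = 0.102). Without SC2, 7 of the 19 tested passed as higher. Of 18 sterol synthesis genes, 1 was below and 0 above. It was Sc5d, a late enzyme of cholesterol synthesis, at 11.1 ± 2.50 RPKM in SC and 15.3 ± 0.42 RPKM in SI (SD, n = 4 each). Of 17 sterol genes tested, 2 passed as lower without SC2 and 8 without SC2 and SI3, where 21.9% of all genes did.

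**Figure D4:**
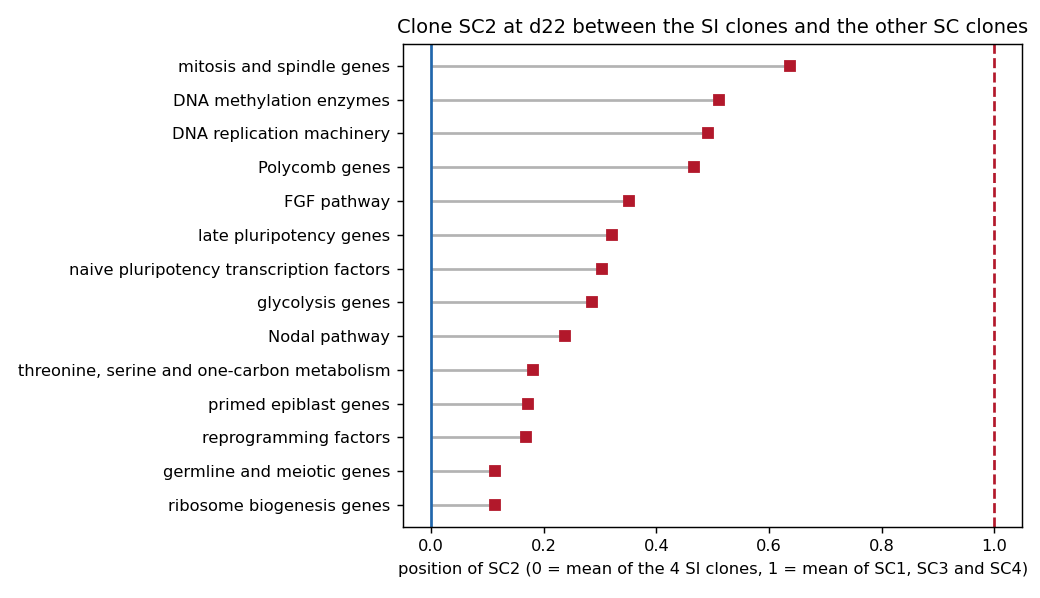
Position of clone SC2 at d22 on the line from the SI mean (0) to the mean of SC1, SC3 and SC4 (1), for gene groups whose gap is at least 0.5 in mean log2(RPKM + 1). SC2 stands at 0.113 for ribosome biogenesis, 0.303 and 0.321 for naive and late pluripotency genes, 0.492 for DNA replication and 0.638 for mitosis.

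Clone SC2 was therefore not at 1 place between the classes. It was 0.638 of the way from the SI mean to the other SC clones for mitosis genes, 0.512 for DNA methylation enzymes and 0.492 for replication. It was 0.321 of the way for late pluripotency genes, 0.303 for naive factors, 0.237 for the Nodal pathway and 0.169 for the reprogramming factors. Over the 5432 genes that separated the other 7 clones, SC2 was on the SC side for 2301 (42.4%) and inside the SI range for 2786. The same share was 78.2% for SC1, 97.3% for SC3, 98.5% for SC4 and 73.7% to 82.2% for the SI clones when each was left out in turn.

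Interferon response genes were low in all 4 SC clones at d22. Of 25 such genes, 0 were above and 10 below all SI clones, where the share below is 5.63% of detected genes. Their mean log2(RPKM + 1) was 2.15, 2.15, 2.21 and 2.20 in SC1 to SC4, against 2.54, 2.32, 3.03 and 2.37 in SI1 to SI4, with 3.19 in iPS cells and 4.01 in feeders. The SC clones spanned 0.063, SC2 included, and SI3 was highest. Irf9, a DNA-binding factor of the type I interferon response, was at 2.74, 3.08, 2.29 and 2.12 RPKM in SC1 to SC4, against 4.72, 3.53, 5.10 and 4.06 RPKM in SI1 to SI4 (log2 difference -0.59 ± 0.14 SE, adjusted p = 0.1), and Xaf1, an interferon-induced gene, at 1.73, 3.02, 1.85 and 1.60 RPKM in SC1 to SC4, against 4.62, 3.47, 5.06 and 4.55 RPKM in SI1 to SI4 (log2 difference -0.84 ± 0.17 SE, adjusted p = 0.1). Without SC2, 5 of the 19 tested passed as lower and 2 as higher, and with all times pooled 0 passed in either direction. Without SC2 and SI3, 9 passed as lower and 2 as higher, where 21.9% and 19.9% of all genes did. iPS cells were not low for these genes, with Irf9 at 4.22 RPKM. The list mean was 2.426 ± 0.243 in SC and 2.205 ± 0.289 in SI at d21 (SD, n = 4 each). At d23 it was 2.577 ± 0.691 in SC and 3.032 ± 0.556 in SI, and SC2, at 3.597, was the highest of the 8 clones. Of the 19 tested, 0 were below all SI clones at d21 and 0 at d23.

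Of 10 MHC class I genes, which present peptides to T cells, 3 were below and 0 above. H2-K1 was at 42.4, 53.6, 38.3 and 33.2 RPKM in SC1 to SC4, against 59.6, 70.02, 77.9 and 57.02 RPKM in SI1 to SI4 (log2 difference -0.66 ± 0.17 SE, adjusted p = 0.1), and H2-D1 at 71.8, 76.99, 58.6 and 53.2 RPKM in SC1 to SC4, against 91.9, 97.1, 153 and 86.4 RPKM in SI1 to SI4 (log2 difference -0.68 ± 0.21 SE, adjusted p = 0.102). These 2 heavy chain genes are near-identical to others of the family, so their reads can be shared. B2m, the light chain, overlapped, at 279, 269, 202 and 198 RPKM in SC1 to SC4, against 270.1, 359, 732 and 357 RPKM in SI1 to SI4 (log2 difference -0.77 ± 0.30 SE, adjusted p = 0.12), and SI3 was highest. Psmb10, an immunoproteasome subunit, ran the other way, at 11.8, 5.45, 36.8 and 50.02 RPKM in SC1 to SC4, against 3.51, 6.56, 7.93 and 4.67 RPKM in SI1 to SI4 (log2 difference 1.63 ± 0.60 SE, adjusted p = 0.114), with SC2 in the SI range and SC4 highest. Of the 9 tested, 3 passed as lower and 2 as higher without SC2.

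Epithelial genes did not separate the classes. Of 24 epithelial adhesion and splicing genes, 0 were above and 0 below. Cdh1 (E-cadherin), which fibroblasts gain when reprogramming starts, was at 50.8, 62.4, 85.3 and 68.03 RPKM in SC1 to SC4, against 109, 68, 10.3 and 107 RPKM in SI1 to SI4 (log2 difference 0.27 ± 0.66 SE, adjusted p = 0.77). SI1 and SI4 were the highest clones and SI3 the lowest, and the sign of the Cdh1 difference turned without SI3 (log2 -0.492). Grhl2, a transcription factor of epithelia, was at 5.48, 5.33, 10.4 and 11.2 RPKM in SC1 to SC4, against 5.31, 3.20, 0.50 and 5.89 RPKM in SI1 to SI4 (log2 difference 1.10 ± 0.47 SE, adjusted p = 0.139). Cldn4, a tight junction protein, was at 64.2, 137, 119 and 25.9 RPKM in SC1 to SC4, against 308, 258, 38.8 and 316 RPKM in SI1 to SI4 (log2 difference -1.28 ± 0.75 SE, adjusted p = 0.23). For Cldn4 SI1, SI2 and SI4 were above all SC clones, and SI3 was inside their range.

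Keratins were also highest in SI1, SI2 and SI4. Krt8, a keratin of simple epithelia, was at 157, 154, 111 and 26.03 RPKM in SC1 to SC4, against 320.4, 275, 71.1 and 268 RPKM in SI1 to SI4 (log2 difference -1.13 ± 0.65 SE, adjusted p = 0.226), with 6.52 RPKM in iPS cells and 0.74 RPKM in feeders. Krt14, a keratin of basal keratinocytes, was at 17.6, 59.7, 28.1 and 3.69 RPKM in SC1 to SC4, against 84.4, 101, 25.2 and 91.4 RPKM in SI1 to SI4 (log2 difference -1.77 ± 0.75 SE, adjusted p = 0.134). SC4 was lowest for both and SI3 was among the SC clones. Sums over the list were 70.4 to 354 RPKM in SC, 119.8 to 751 RPKM in SI and 12.3 RPKM in feeders for 6 simple epithelium keratins, with 0 of 6 separated. They were 62.4 to 267 RPKM in SC, 79.8 to 490.4 RPKM in SI and 8.16 RPKM in feeders for 19 keratinocyte markers, with 0 above and 1 below. The epithelial calls depended on both SC2 and SI3. Without the 2 clones, 14 epithelial genes, 5 simple keratins and 7 keratinocyte markers passed as lower in SC, where 21.9% of all genes did and 41.8% passed in either direction. Without SC2 alone, the counts were 0, 0 and 2.

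Fibroblast genes were lower on average in SC, but most overlapped through SC1, SC2 or both. Of 26 fibroblast matrix and surface markers, all tested, 5 were below and 0 above, and of 18 collagens 3 were below. The means of the 26 were 6.58, 6.43, 5.69 and 5.68 in SC1 to SC4, against 6.38, 6.58, 7.73 and 6.52 in SI1 to SI4, with 5.04 in iPS cells and 7.33 in feeders. SC3 and SC4 were lowest, SC1 and SC2 stood among the SI clones, and SI3 was above feeders. Col1a1, a chain of type I collagen, was at 599, 643, 318 and 238 RPKM in SC1 to SC4, against 744, 743, 1612 and 600.4 RPKM in SI1 to SI4 (log2 difference -1.05 ± 0.41 SE, adjusted p = 0.12). Lox, an enzyme that crosslinks collagen, was at 233, 227, 109 and 92.7 RPKM in SC1 to SC4, against 270.4, 285, 627 and 311 RPKM in SI1 to SI4 (log2 difference -1.20 ± 0.38 SE, adjusted p = 0.102), and its relative Loxl2 at 95.3, 93.3, 50.1 and 41.4 RPKM in SC1 to SC4, against 109, 112, 235 and 105 RPKM in SI1 to SI4 (log2 difference -0.996 ± 0.35 SE, adjusted p = 0.109). Thy1, a surface marker that fibroblasts lose in reprogramming, overlapped, at 245, 194, 129 and 142 RPKM in SC1 to SC4, against 175, 247, 487 and 208 RPKM in SI1 to SI4 (log2 difference -0.58 ± 0.33 SE, adjusted p = 0.228). The list summed to 3264 to 6085 RPKM in SC, 5508 to 13009 RPKM in SI and 12658 RPKM in feeders, and none of its 26 members was at 0 in all clones. Without SC2, 5 of the 26 markers passed as lower, and of 17 collagens tested 5 as lower and 1 as higher. Of all genes, 15.2% passed as lower and 19% as higher, so the marker count was near its share. Whether the clones still held feeders or fibroblasts is not given in the labels, and the part of such cells in the differences was not tested.

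Contractile and mechanical response genes showed the same spread. Acta2, smooth muscle actin, was at 485, 392, 133 and 117 RPKM in SC1 to SC4, against 458, 614, 1464 and 430.3 RPKM in SI1 to SI4 (log2 difference -1.47 ± 0.56 SE, adjusted p = 0.118). Its near copy Actg2 did not overlap, at 34.9, 37.5, 13.8 and 8.54 RPKM in SC1 to SC4, against 38.4, 60.2, 103 and 37.9 RPKM in SI1 to SI4 (log2 difference -1.41 ± 0.50 SE, adjusted p = 0.109), and reads can be shared between them. Ccn2 (connective tissue growth factor), a target of YAP, was at 322, 349, 113 and 62.4 RPKM in SC1 to SC4, against 441, 523, 586 and 387 RPKM in SI1 to SI4 (log2 difference -1.504 ± 0.52 SE, adjusted p = 0.107). Of 15 smooth muscle genes 3 were below, and of 13 YAP and SRF targets 2 were. Fosl2, an AP-1 subunit, was at 25.5, 29.5, 16.5 and 9.64 RPKM in SC1 to SC4, against 35.9, 35.6, 53.7 and 33.6 RPKM in SI1 to SI4 (log2 difference -1.02 ± 0.32 SE, adjusted p = 0.102), and Junb, another, at 38.98, 46.1, 33.2 and 15.8 RPKM in SC1 to SC4, against 52.5, 78.5, 53.3 and 53.7 RPKM in SI1 to SI4 (log2 difference -0.89 ± 0.31 SE, adjusted p = 0.108). AP-1 and immediate early factors had 4 of 15 below and 0 above. Snai1, a repressor of Cdh1, was at 17.6, 15.1, 10.7 and 10.2 RPKM in SC1 to SC4, against 18.9, 21.8, 36.3 and 18.4 RPKM in SI1 to SI4 (log2 difference -0.77 ± 0.25 SE, adjusted p = 0.103), 1 of 2 below among 15 mesenchymal factors. Without SC2, those passing as lower were 2 of 15 smooth muscle genes, 2 of 13 YAP and SRF targets, 5 of 15 AP-1 factors and 2 of 11 mesenchymal factors, and 0 passed as higher. Of all genes, 15.2% passed as lower, so only the AP-1 count stood well above that share.

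By the naming rule the genes lowest in SC were Aspn, Serpinb1a, F3, Lrrc17, Ccn2, Prss23, Ccdc80 and Syn3. Aspn (asporin), a proteoglycan of cartilage and tendon matrix, was at 7.59, 11.8, 3.45 and 2.57 RPKM in SC1 to SC4, against 12.3, 18.9, 44.1 and 11.9 RPKM in SI1 to SI4 (log2 difference -1.61 ± 0.50 SE, adjusted p = 0.102). SC2 and SI4 were nearly equal for Aspn. F3, tissue factor, which starts blood coagulation, was at 60.6, 69.04, 55.3 and 17.4 RPKM in SC1 to SC4, against 149.6, 129, 122 and 136 RPKM in SI1 to SI4 (log2 difference -1.55 ± 0.38 SE, adjusted p = 0.1). Serpinb1a, an inhibitor of neutrophil proteases, was at 1.36, 4.88, 2.62 and 0.61 RPKM in SC1 to SC4, against 10.2, 12.01, 6.53 and 5.37 RPKM in SI1 to SI4 (log2 difference -1.61 ± 0.40 SE, adjusted p = 0.1), and feeders held only 0.87 RPKM of it. SI3 was the lowest SI clone for F3 and within the range of the others for Serpinb1a. Lrrc17, a secreted leucine-rich repeat protein, averaged 2.21 ± 1.67 RPKM in SC and 7.90 ± 4.58 RPKM in SI, and Prss23, a serine protease, 48.4 ± 30.3 RPKM in SC and 121 ± 45.3 RPKM in SI (SD, n = 4 each). Ccdc80, a matrix protein, averaged 21.2 ± 11.7 RPKM in SC and 61.97 ± 43.1 RPKM in SI, and Syn3, a synapsin, 12.6 ± 7.44 RPKM in SC and 33.2 ± 11.3 RPKM in SI. Without SC2 all 8 genes passed, with limma adjusted p of 0.00926 for Serpinb1a to 0.0392 for Ccdc80. They were chosen for large differences without overlap in these same libraries, so their passing is no separate support. Ccn4, a matricellular relative of Ccn2 in the fibroblast list, was at 23.4 ± 13.7 RPKM in SC and 53.8 ± 19.3 RPKM in SI (SD, n = 4 each).

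Markers of other cell types were also read. The 16 macrophage markers summed to 152 to 309 RPKM in SC, 276 to 511 RPKM in SI and 311 RPKM in feeders, with 2 below and 0 above, and 4 passed as lower without SC2. C1qa, a complement subunit made by macrophages, was at 6.65, 4.98, 2.47 and 3.49 RPKM in SC1 to SC4, against 6.89, 9.74, 13.6 and 6.66 RPKM in SI1 to SI4 (log2 difference -0.93 ± 0.29 SE, adjusted p = 0.102), and Lyz2, lysozyme, at 193, 122, 90.9 and 87.4 RPKM in SC1 to SC4, against 122, 180.3, 334 and 156 RPKM in SI1 to SI4 (log2 difference -0.65 ± 0.35 SE, adjusted p = 0.199). The order SC3 and SC4 lowest, SI3 highest was that of the fibroblast genes, and the part of such cells in the results was not tested. Igf2, an imprinted growth factor, was at 30.1, 27.8, 23.8 and 18.01 RPKM in SC1 to SC4, against 50.6, 48.5, 91.6 and 34.2 RPKM in SI1 to SI4 (log2 difference -1.07 ± 0.29 SE, adjusted p = 0.1), and Mest, another imprinted gene, at 29.9, 26.6, 25.8 and 30.9 RPKM in SC1 to SC4, against 22.6, 18.5, 24.5 and 18.5 RPKM in SI1 to SI4 (log2 difference 0.42 ± 0.13 SE, adjusted p = 0.102). Of 13 imprinted genes tested, 4 passed as lower and 1 as higher without SC2. Of 12 trophoblast markers, 3 were above all SI clones in every SC clone and 0 below, where 9.22% and 5.63% of detected genes were. Those above were too low to be tested. Of the 5 trophoblast markers tested, 0 passed without SC2. Without SC2 and SI3, 3 of the 5 passed as lower, where 21.9% of all genes did. The Y-linked helicase gene Ddx3y was at 3.63, 3.02, 7.82 and 12.1 RPKM in SC1 to SC4, against 11.8, 20.99, 8.58 and 13.01 RPKM in SI1 to SI4, and feeders were at 6.04 RPKM, so that the clones differed in it without a split by class.

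Over all genes tested, the counts without overlap at d22 lay between those of the days on either side. Of the 11880 genes, 579 (4.87%) were above and 275 (2.31%) below without overlap at d21, and 2496 (21.0%) and 1671 (14.1%) at d23. For mitosis genes 15, 28 and 30 of 30 were above at d21, d22 and d23, and for replication genes 9, 27 and 26. For ribosome biogenesis genes 0, 10 and 20 of 20 were above. Fibroblast markers had 0, 5 and 12 of 26 below, and smooth muscle genes 1, 3 and 13 of 15. Not every list followed this order. Of 19 interferon genes tested, 0, 8 and 0 were below and 0, 0 and 2 above. Of 16 FGF genes tested, 2, 4 and 2 were above and 1, 1 and 1 below. By these counts most mitosis and replication genes were apart by d22, while ribosome, fibroblast and smooth muscle genes had more members apart at d23, and the steps between days were not tested for the counts.

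**Figure D5:**
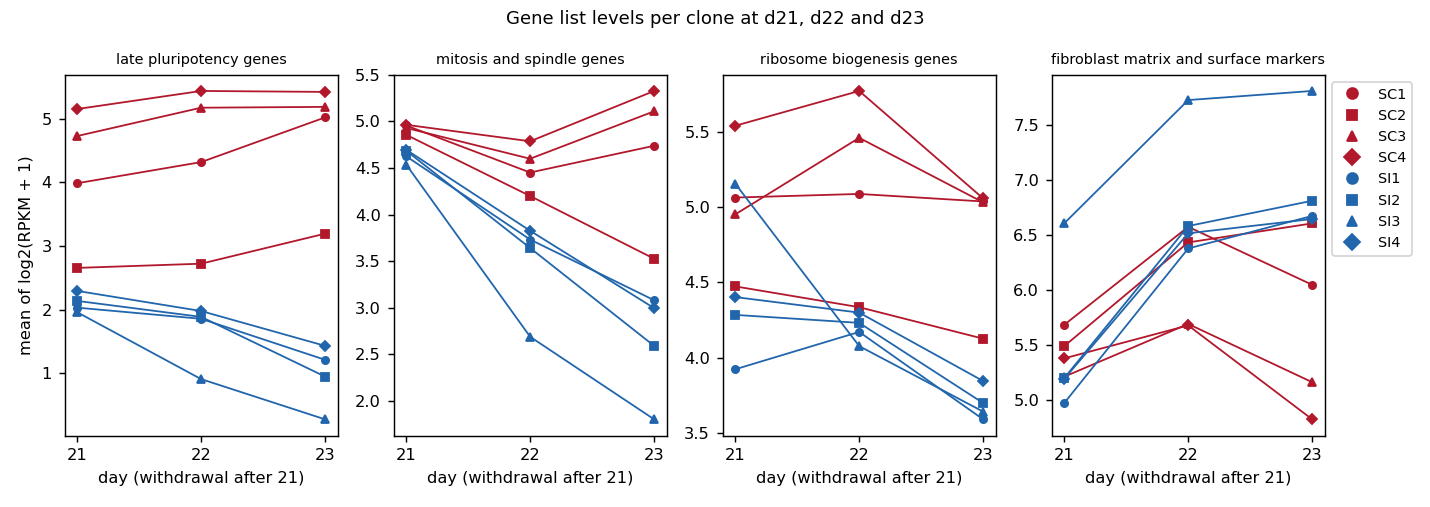
Mean log2(RPKM + 1) over 4 gene groups in each clone at d21, d22 and d23 (SC red, SI blue, 1 line per clone). For mitosis genes the SI clones descend at each day and lie below all SC clones on all 3 days. For ribosome biogenesis SC2 is next to the highest SI clone at d22 and above all of them at d23. For fibroblast markers all 4 SC clones lie below the SI clones at d23, SC2 only just, at 6.607 against 6.647 for SI4.

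Mitosis genes averaged 4.93 ± 0.05 for SC clones and 4.64 ± 0.07 for SI clones at d21, 4.51 ± 0.25 for SC clones and 3.47 ± 0.53 for SI clones at d22 and 4.67 ± 0.80 for SC clones and 2.62 ± 0.58 for SI clones at d23 (mean ± SD of log2(RPKM + 1), n = 4 each). Late pluripotency genes averaged 4.13 ± 1.09 for SC clones and 2.11 ± 0.14 for SI clones, 4.41 ± 1.22 for SC clones and 1.66 ± 0.50 for SI clones and 4.70 ± 1.02 for SC clones and 0.97 ± 0.50 for SI clones on the same days. On average the SI levels were lower on each later day, and the SC levels of late genes were higher, steps that were not tested. Between d21 and d22, 0 of 12644 genes passed in limma on the within-clone differences, although 3353 (26.5%) did before adjustment, and without SC2 766 passed. Cdc20, which on d21 was at 85.4 ± 10.03 RPKM in SC and 72.1 ± 5.37 RPKM in SI, had a d22 gap that exceeded the d21 gap by log2 1.06 ± 0.20 SE, adjusted p = 0.0996. Tdh did so by log2 2.73 ± 0.50 SE, adjusted p = 0.0996. Lefty2 had the opposite sign, log2 -1.47 ± 0.40 SE, adjusted p = 0.1, and its SI level was 2.49 RPKM at d21 and 10.4 RPKM at d22.

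Between d22 and d23, 73 of 12597 genes (0.580%) differed in the class gap, 69 with a more positive difference between SC and SI at d23 (0.548%) and 4 with a more negative one (0.0318%). Before adjustment 4089 (32.5%) did. Nanog was among the 73, and at d23 it averaged 76.7 ± 39.04 RPKM in SC and 0.97 ± 1.21 RPKM in SI (change of the gap log2 2.72 ± 0.48 SE, adjusted p = 0.0477). Esrrb (log2 1.29 ± 0.20 SE, adjusted p = 0.0364), Lefty1 (log2 1.95 ± 0.32 SE, adjusted p = 0.0427) and Mcm3 (log2 1.28 ± 0.20 SE, adjusted p = 0.0364) were too. Alpl, which did not separate the classes at d22, averaged 16.4 ± 7.67 RPKM in SC and 2.12 ± 1.45 RPKM in SI at d23 (change of the gap log2 1.93 ± 0.32 SE, adjusted p = 0.0427). Sox2, without overlap at d22, did not pass between d22 and d23 (log2 1.11 ± 0.21 SE, adjusted p = 0.0541). The 73 calls were 0 when SC1, SC3, SC4, SI1 or SI2 was left out, 22 without SI3, 2 without SI4 and 4556 without SC2.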

How the data were processed

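The 47 mouse libraries were TruSeq messenger RNA libraries from column-purified, DNase-treated RNA, per the labels' protocols. The authors deposited 1 table of RPKM per gene and library. The unit is named in no header and was read from the values, since the sum of RPKM multiplied by exon length (in gigabases) was 0.878 to 0.998 in the d22 libraries, where RPKM over all reads gives 1. CASAVA 1.8 and build mm9 are named without a role, per the submitters' processing notes. Not given in the sources used here are the aligner, the annotation release and any filter. The treatment text states the schedule of d22 and d23 differently from each library's characteristics, and the characteristics were followed.

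Symbols came from GENCODE M21 by Ensembl ID for 20750 of 22632 genes. SC and SI clones (n = 4 each) were compared with limma 3.58.1 in R 4.3.3 (lmFit, eBayes with a trend) on log2(RPKM + 1), for genes with at least 1 RPKM in at least 4 of the 8 libraries. Folds on this scale understate low genes. Two-sided p-values received Benjamini-Hochberg adjustment across all genes tested, with a threshold of 0.05. Gaps between days were compared on within-clone differences in the same way. The script was tested on simulated data. Depth was read from the spacing of values of short genes, since no read totals were given, and it covers counting error only. Members and lists were chosen with earlier results of these data known. Of 654 list members, 650 were found. Genes could be named if they had 1 of the 8 largest differences in either direction without overlap and at least 5 RPKM in the higher class, or one of the 3 smallest p in a list, or the highest level among overlapping members, or were among 15 marker genes; Ddx3y was added as a Y-linked gene. Some genes that the rule names are not reported here. Promoters are those of RefSeq on GRCm38.p6. Tables used Python 3.11.15, numpy 2.4.6, pandas 2.3.3 and matplotlib 3.10.9. Alternatives tried were no filter, a pseudocount of 0.1, median-ratio scaling, a replicate block, library weights, all 40 libraries pooled and each clone left out.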

Additional observations from a re-analysis of the deposited data

Results flagged for a closer look

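In 274 groups of 4 clones, the 97 genes named in the text and the gene lists were read for a clone far from the other 3, by a gap that exceeded Dixon's 95% critical value as a share of the group's range. This held in 25 (9.12%), where chance gives about 1 in 20 for a single group, and the clone was SI3 in 21 of them. The groups all come from the same 8 libraries and share genes, so they are not independent and the total was not tested against chance. Values are log2(RPKM + 1), with the range of the other 3 clones of the class. SI3 was far below the other SI clones for Trh (0.39, others 2.96 to 3.44), Pou5f1 (5.63, others 7.51 to 7.86) and Dnmt3b (1.33, others 2.36 to 2.52). It was likewise low for Mcm3 (4.20, others 5.17 to 5.28), Mcm7 (2.54, others 3.12 to 3.23) and Cldn4 (5.31, others 8.02 to 8.31). Low SI3 values were also seen for Krt8 (6.17, others 8.07 to 8.33) and Krt14 (4.71, others 6.42 to 6.67). SI3 was far above them for Bmp1 (6.92, others 6.14 to 6.23), Lox (9.29, others 8.08 to 8.28) and Loxl2 (7.88, others 6.73 to 6.82). It also stood high for Ccn4 (6.38, others 5.46 to 5.55), Fosl2 (5.77, others 5.11 to 5.21) and Pkm (8.50, others 8.34 to 8.36). As list means, SI3 was low for late pluripotency genes (0.91, others 1.86 to 1.98), Polycomb genes (2.78, others 3.40 to 3.42) and DNA replication machinery (2.59, others 3.42 to 3.47). The same was so for mitosis and spindle genes (2.69, others 3.64 to 3.83), epithelial adhesion and splicing genes (2.04, others 4.03 to 4.43) and keratinocyte markers (1.19, others 2.57 to 2.65), and it was high for fibroblast matrix and surface markers (7.73, others 6.38 to 6.58). For F3, SC4 was below the other SC clones, at 4.20 against 5.82 to 6.13. For Myc, SI1 was below the other SI clones, at 3.76 against 4.02 to 4.07. For Junb, SI2 was above the other SI clones, at 6.31 against 5.74 to 5.77. For mesoderm markers as a list mean, SC2 was below the other SC clones, at 0.42 against 0.66 to 0.67. 

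The gap between SC and SI differed between d23 and d22, by limma on the within-clone differences, for 9 of the 97 genes named, each with a more positive difference at d23. These were Nanog (log2 2.72 ± 0.48 SE, adjusted p = 0.0477), Esrrb (log2 1.29 ± 0.20 SE, adjusted p = 0.0364) and Klf5 (log2 0.61 ± 0.11 SE, adjusted p = 0.0474), then Alpl (log2 1.93 ± 0.32 SE, adjusted p = 0.0427), Lefty1 (log2 1.95 ± 0.32 SE, adjusted p = 0.0427) and Fgf4 (log2 1.04 ± 0.15 SE, adjusted p = 0.0364), and Cbx7 (log2 1.11 ± 0.16 SE, adjusted p = 0.0364), Mcm3 (log2 1.28 ± 0.20 SE, adjusted p = 0.0364) and Espl1 (log2 1.08 ± 0.19 SE, adjusted p = 0.0473). These calls depend on the clones kept: 0 genes of all passed when SC1, SC3, SC4, SI1 or SI2 was left out.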

How the results depend on the processing

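The count of 0 genes past the threshold at d22 was the same with a pseudocount of 0.1, no filter and median-ratio scaling. It was 3104 with all times pooled, 7202 with library weights (the weights did not fully converge) and 5051 without SC2 and SI3, a choice made after the values were seen. Leaving out 1 clone gave 0 to 4147, and only leaving out SC2 gave any. Clone numbers do not pair the classes: same-numbered clones had correlations of deviations of -0.496, -0.032, -0.525 and 0.089. With the number as a replicate block, 0 genes passed at d22 (2981 at an unadjusted p under 0.05), 0 between the d21 and d22 gaps, and 3 between the d22 and d23 gaps. The d21 to d22 count was 1 with no filter and 0 to 766 with 1 clone left out. The d22 to d23 count of 73 was 32 with median-ratio scaling, 0 with no filter, 134 with a pseudocount of 0.1 and 0 to 4556 with 1 clone left out. Genes without overlap numbered 1372 to 2878 higher and 964 to 2554 lower with 1 clone left out.

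Of the medians of 36 lists, those that moved by more than their spread were few. The Wnt pathway stood at -0.389 with a pseudocount of 0.1, and without a filter trophoblast markers stood at -0.011, endoderm markers at 0.035 and imprinted genes at -0.306. With 1 clone left out the medians ran from -0.436 to -0.198 for LIF, -0.451 to -0.205 for Wnt, -1.642 to -0.621 for keratinocyte, -1.266 to -0.358 for trophoblast, -0.441 to -0.211 for endoderm and -0.608 to -0.329 for imprinted genes. With 1 clone left out the log2 difference ran from -0.004 to 0.899 for Alpl, -0.256 to 0.241 for Rrm1 and -0.492 to 0.602 for Cdh1. The sign turned for Alpl without SI3 (-0.004) and without SC2 and SI3 (-0.002). It turned for Rrm1 with library weights (-0.290), without SC2 (-0.101), without SI3 (-0.256) and without both (-0.440), and for Cdh1 with library weights (-0.340), without SI3 (-0.492) and without both (-0.469). Many of the 97 named genes were chosen by their p or difference in these libraries, which favours their passing. Of the 97, 81 passed without SC2, 66 with all times pooled, 90 with library weights and 82 without both clones. Of all genes tested, 34.1% passed without SC2, 26.1% with all times pooled, 7202 of 11880 with library weights and 41.8% without both clones. No other setting brought a named gene past the threshold. The causes were not tested. With 4 clones a side and 1 table without read totals, small differences of low genes are not resolved.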
